A study of Mus musculus with 32 samples.

Results

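The transcripts described here are those of the mouse mitochondrial genome in the vomeronasal organ (VNO), the organ of the nose that detects pheromones. They were chosen by symbol, as every gene whose name starts with mt-, with earlier results of these data known. This gave 37 of the 49671 genes listed, made up of 2 ribosomal RNA (rRNA) genes, 13 protein-coding (mRNA) genes and 22 transfer RNA (tRNA) genes, all annotated on chrM of GRCm38 (mm10). RNA was sequenced from the vomeronasal epithelial tissue of 32 individual mice, each 42 days old. The strains were C57/BL6 (B6), 129S6/SVEV (129), SJL/J (SJL) and SWR/J (SWR), as the labels spell them, with 4 males and 4 females of each, and no treatment is given for any mouse. The study's text names the 129 mice 129Sv/J. The comparisons were those of the 6 strain pairs and of the sexes.

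The mitochondrial genome is a small circle that encodes a few subunits of the respiratory chain and of ATP synthase, together with the rRNAs and tRNAs that translate them inside the organelle. Its heavy and light strands are each transcribed as long precursors, which are cut at the tRNAs that lie between the larger genes, and the RNAs released are then kept or degraded at different rates. All other mitochondrial proteins, including most respiratory subunits, are made from nuclear genes. The libraries were prepared from total RNA after ribodepletion with a kit that also targets mitochondrial rRNA, so the rRNA reads are those left after depletion.

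The deposited values are whole read pairs placed uniquely on each gene and strand, called reads here. Reads on genes ranged from 5106398 to 18640871 per library, with a median of 11461344.5, and levels are given as CPM, the reads of a gene per 1000000 reads on genes. The 5 markers of mature vomeronasal sensory neurons that had reads summed to 2236 to 3428 CPM in the 32 libraries, and the sixth, Trpc2, is listed at 0 and overlaps Xntrpc, which has reads. Libraries 129 male 1 and B6 female 1 stood apart, with ciliated-cell markers at a summed 529 and 342 CPM against a median of 129 CPM over all libraries. In bulk tissue, fewer cells of a type and less RNA per cell cannot be told apart.

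A copy of part of the mitochondrial genome lies in the nuclear genome, and it bears on the genes to which a read can be placed uniquely. Sequences of GENCODE M21 transcripts (GRCm38) were compared. The stretch chrM:6390-11042, which runs from inside mt-Co1 to inside mt-Nd4, corresponds to 7 pseudogene models in the same order on the minus strand of chr1:24611535-24616197. Over all the aligned bases of these 7 models the sequences differed at 2 positions, T3C in mt-Nd3 and A1066T in mt-Co1, counted from 1 at the first base of the mitochondrial gene with the mitochondrial base given first. Both positions are printed here with the base that differs in capitals. Within the models, only a read pair that covers such a base can be told from its copy. The nuclear sequence between the models was not compared, so whether a pair that runs past a model's end can be told apart is not known. The sequences are those of the reference and the bases carried by the strains were not measured here.
mt-Nd3, chrM:9459-9518, plus strand: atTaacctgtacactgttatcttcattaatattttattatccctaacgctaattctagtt
Gm28438, chr1:24613060-24613119, minus strand: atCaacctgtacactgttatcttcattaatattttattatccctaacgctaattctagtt
mt-Co1, chrM:6390-6449, plus strand: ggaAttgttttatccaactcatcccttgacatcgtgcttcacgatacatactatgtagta
Gm29216, chr1:24616129-24616188, minus strand: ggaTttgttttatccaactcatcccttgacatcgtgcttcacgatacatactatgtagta

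The start of mt-Co3 shows the other case, a stretch identical to its copy, here with the first 3 bases (the start codon of mt-Co3) in capitals.
mt-Co3, chrM:8607-8666, plus strand: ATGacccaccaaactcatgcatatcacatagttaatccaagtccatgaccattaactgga
Gm28437, chr1:24613912-24613971, minus strand: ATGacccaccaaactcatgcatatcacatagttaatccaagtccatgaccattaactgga

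The mitochondrial pool was mostly rRNA. Over the 32 libraries the 2 rRNA genes took 19247684 reads, which was 83.4% of the mitochondrial reads and 5.12% of all reads on genes. The 13 mRNA genes took 3833212 reads (16.6% and 1.02%). The 22 tRNA genes took 1938 reads (0.0084% of the mitochondrial reads), and these genes, of 59 to 75 bp, are shorter than a read. Transcripts of the plus strand, which holds 12 of the mRNA genes, had 3827298 of the mRNA reads, and mt-Nd6, the only mRNA gene on the minus strand, had 5914.

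**Figure D1:**
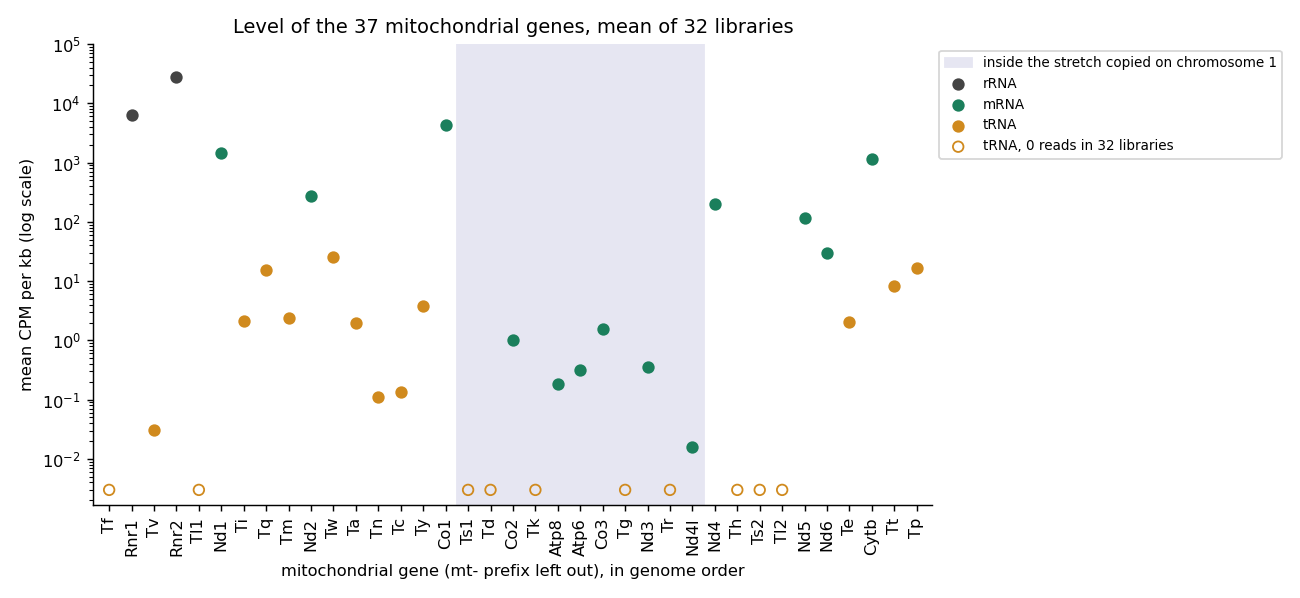
Mean level of each of the 37 mitochondrial genes over 32 libraries, in CPM per kilobase on a log axis, with the genes in genome order along the horizontal axis. The shaded genes lie wholly inside the stretch copied on chromosome 1, where no gene is above 1.57 CPM per kb, and open circles at the bottom mark the 10 tRNA genes with 0 reads.

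Per kilobase of gene, the order of mean levels was mt-Rnr2 (28101 CPM per kb), mt-Rnr1 (6325), mt-Co1 (4321), mt-Nd1 (1476), mt-Cytb (1162), mt-Nd2 (269), mt-Nd4 (198), mt-Nd5 (116) and mt-Nd6 (30.2 CPM per kb). Of neighbours in this order, the ranges over libraries overlapped for mt-Rnr1 and mt-Co1, mt-Nd1 and mt-Cytb, mt-Nd2 and mt-Nd4, and mt-Nd4 and mt-Nd5. The ranges of the remaining neighbours did not overlap. The other 6 mRNA genes were far lower, at 1.57 CPM per kb for mt-Co3, 0.998 for mt-Co2, 0.360 for mt-Nd3, 0.318 for mt-Atp6, 0.183 for mt-Atp8 and 0.0159 for mt-Nd4l. These encode subunits of cytochrome c oxidase (mt-Co2 and mt-Co3), ATP synthase (mt-Atp6 and mt-Atp8) and complex I (mt-Nd3 and mt-Nd4l), and all 6 lie wholly inside the copied stretch.

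The 11 genes inside that stretch, which are these 6 and the tRNA genes mt-Ts1, mt-Td, mt-Tk, mt-Tg and mt-Tr, had 871 reads in all 32 libraries together, the 5 tRNA genes having 0. The share of windows of read length in a gene with an exact match in an annotated nuclear transcript was 99.8% for mt-Co3, 99.5% for mt-Co2 and mt-Atp6, 98.3% for mt-Nd4l and 97.3% for mt-Nd3. In mt-Nd4 such windows were 752 of 1254, and the share was 26.7% for mt-Co1, 0.547% for mt-Nd2 and 0 for both rRNAs, mt-Nd1, mt-Nd5, mt-Nd6 and mt-Cytb. It was also 0 for mt-Atp8, which falls in a gap between the annotated models, and unannotated nuclear sequence was not searched. The low counts of these genes are therefore counts of uniquely placed reads and were not read as levels of their transcripts. When the mean CPM of the whole gene was divided by its windows without such a match, mt-Nd4 stood above mt-Nd2. The values were 544 against 307 CPM per kilobase of window starts. Reads were not counted by window, so this order rests on the divisor.

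Each mouse had few reads on these genes. mt-Co3 had 3 to 40 reads per library (median 13.5), mt-Co2 2 to 27 (median 7), mt-Atp6 0 to 8 (median 2.5) and mt-Nd3 0 to 4 (median 1). mt-Atp8 had 15 reads in the 32 libraries and mt-Nd4l had 2. The nuclear models of the stretch were as sparse: Gm28437, the copy of mt-Co3, had 263 reads over all libraries, Gm28661 (mt-Co2) 271, Gm10925 (mt-Atp6) 306, Gm29216 (mt-Co1) 324, Gm28439 (mt-Nd4) 20 and Gm10222 (mt-Nd4l) 15.

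The copy of mt-Nd3 was the exception, and it was singled out after its values were seen. Gm28438 had 641 reads, against 46 for mt-Nd3 itself. In B6 it had 0 reads in the lowest library, 0 at the median and 3 in the highest, while 129 had 19, 22.5 and 31, SJL 16, 28.5 and 41, and SWR 15, 26 and 38. Every B6 mouse lay below every mouse of the other strains. Summed over 8 mice each, 6 reads in B6 stood against 187 in 129, a depth-corrected ratio of 27.1 (exact 95% interval 12.2 to 74.8, which covers counting error only). By edgeR's quasi-likelihood test the LFC of B6 minus 129 was −4.68 ± 0.34 (SE, FDR 1.04e-13), and that of SJL and of SWR over B6 was 4.87 (FDR 2.28e-14) and 4.71 (FDR 7.59e-14). mt-Nd3 itself had 13 reads in B6, 6 in 129, 15 in SWR and 12 in SJL. Whether the strains differ in sequence at the base shown above was not tested. B6 is the strain of the reference genome.

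**Figure D2:**
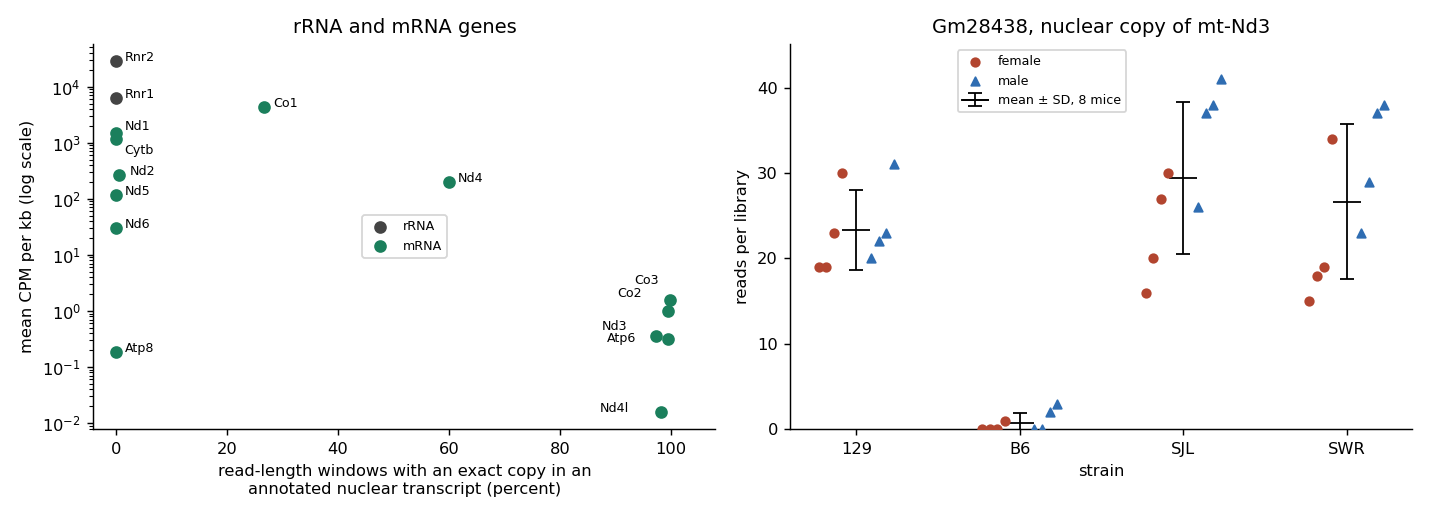
Left, mean level of the 2 rRNA and 13 mRNA genes (CPM per kb, log axis) against the percent of their windows of read length that match an annotated nuclear transcript exactly; the 5 genes above 97% are all at or below 1.57 CPM per kb. Right, reads per library on Gm28438, the nuclear copy of mt-Nd3, with 1 point per mouse and bars of mean ± SD of 8 mice; B6 mice have 0 to 3 reads and the other mice 15 to 41.

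Of the tRNA genes, 12 had at least 1 read and 10 had 0, namely mt-Tf, mt-Tl1, mt-Ts1, mt-Td, mt-Tk, mt-Tg, mt-Tr, mt-Th, mt-Ts2 and mt-Tl2. A count of 0 over all libraries allows up to 0.00798 CPM of uniquely placed reads (3 reads of 376063351). It sets no limit on the level of the transcript, since these genes are shorter than a read and 5 of the 10 lie in the copied stretch. The 5 with most reads carry tryptophan (mt-Tw, 631 reads), proline (mt-Tp, 413), glutamine (mt-Tq, 389), threonine (mt-Tt, 187) and tyrosine (mt-Ty, 93). The sequences of the 3 highest are shown beside mt-Tr, the arginine tRNA of the copied stretch, since all are of similar length and the first 3 had reads while mt-Tr had 0.
mt-Tw, chrM:4950-5016, plus strand: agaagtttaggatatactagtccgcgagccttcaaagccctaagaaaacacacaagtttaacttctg
mt-Tp, chrM:15356-15422, minus strand: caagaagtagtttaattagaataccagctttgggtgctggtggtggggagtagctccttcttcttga
mt-Tq, chrM:3772-3842, minus strand: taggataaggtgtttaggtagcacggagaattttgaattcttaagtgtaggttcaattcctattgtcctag
mt-Tr, chrM:9808-9875, plus strand: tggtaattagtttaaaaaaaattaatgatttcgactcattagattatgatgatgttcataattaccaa

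Per library, mt-Tw had 8 to 36 reads (median 20.5), mt-Tp 2 to 35 (median 12.5) and mt-Tq 5 to 30 (median 12). mt-Tt had 1 to 13 (median 6) and mt-Ty 0 to 7 (median 2.5). The other 7 tRNA genes with a read had 1 to 63 reads over all libraries. The 8 tRNA genes on the minus strand had 1001 reads, with 1 of them at 0, and the 14 on the plus strand had 937 reads, with 9 of them at 0. On the plus strand, mt-Tl1 directly adjoins mt-Rnr2 and mt-Nd1, and mt-Tr lies between mt-Nd3 and mt-Nd4l. A pair longer than a tRNA gene can touch its neighbours, and how such pairs were counted was not examined. The counts by strand are thus not read as levels of the tRNAs. mt-Tw overlaps the end of mt-Nd2 by 2 bases on the same strand, so reads across that junction cannot be given to either gene with certainty.

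The rRNAs held most of the mitochondrial reads in every strain. mt-Rnr1 (chrM:70-1024) encodes the 12S rRNA of the small mitochondrial ribosomal subunit and mt-Rnr2 (chrM:1094-2675) the 16S rRNA of the large subunit. Together they took 2.45 to 7.46% of a library (median 4.96%). The lowest, median and highest shares of 129 mice were 4.10, 6.43 and 7.46%, against 3.25, 4.93 and 5.60% of B6 mice, 2.45, 4.75 and 7.08% of SJL mice, and 3.26, 4.07 and 6.66% of SWR mice. The 4 ranges overlapped.

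mt-Rnr1 was higher in 129 than in each other strain. Its lowest, median and highest levels were 4664, 8892 and 13661 CPM in 129, 2868, 5391 and 7568 in B6, 1477, 4886 and 8279 in SJL, and 2690, 4053 and 9201 CPM in SWR. The strain means were 9215 ± 3377 CPM (SD, n = 8) in 129, and B6 had 5319 ± 1554, SJL 4856 ± 2618 and SWR 4773 ± 1995 CPM. The ranges overlapped, although the 129 median lay above every B6 and SJL mouse. The LFC was −0.92 ± 0.28 for B6 minus 129 (SE, edgeR, FDR 0.0056), −1.08 ± 0.28 for SJL minus 129 (FDR 0.0023) and −1.04 ± 0.28 for SWR minus 129 (FDR 0.0028). These 3 comparisons share the 129 mice. mt-Rnr1 was the only mitochondrial gene of the 15 tested to be called with FC > 2 in any strain pair (1 of 15, with 19.8% of all tested genes called by that rule). That call was lost without 129 female 2 or 129 female 4 (0 genes) and 2 genes passed without 129 male 4, the second being mt-Tt for B6 minus 129 (FDR 0.0338), whereas all 3 mt-Rnr1 calls at FDR under 0.05 held with each library left out.

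mt-Rnr2 also had its highest median in 129, with smaller differences. Its levels were 36348, 53943 and 62636 CPM in 129, 29615, 43875 and 49205 in B6, 22988, 43541 and 63459 in SJL, and 29868, 36803 and 57369 CPM in SWR. The ranges overlapped widely. The LFC was −0.38 ± 0.16 for B6 minus 129 (edgeR, FDR 0.0466) and −0.41 ± 0.16 for SWR minus 129 (FDR 0.0393), and SJL minus 129 was not called (−0.35, FDR 0.085). Of these, the B6 call was lost when any 1 of 11 libraries was left out (129 female 1, 2 and 4, 129 male 1, B6 female 3, B6 male 1, 2, 3 and 4, SJL male 4 and SWR female 4, with LFC −0.45 to −0.29 over every library left out). It was also lost in the fit with the replicate number as a block (FDR 0.0571) and with library totals alone (LFC −0.30, FDR 0.0876). The same held without both 129 male 1 and B6 female 1 (FDR 0.0555). The SWR call was lost when any 1 of 8 libraries was left out (129 female 1, 2 and 4, SWR female 1, 2 and 4, and SWR male 1 and 4, with −0.47 to −0.32).

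Because mt-Rnr1 moved more than mt-Rnr2, the ratio of the rRNAs differed too. mt-Rnr2 had 4.03 to 15.6 reads per read of mt-Rnr1 over the 32 libraries, with medians of 9.24 in SJL, 9.06 in SWR, 8.14 in B6 and 5.96 in 129. The rRNA counts also varied more than those of most abundant genes. Within the 8 groups of strain and sex the median coefficient of variation was 35.7% for mt-Rnr1, exceeded by 17 of the 2246 genes above 100 CPM, and 17.4% for mt-Rnr2, exceeded by 40. The median over those genes was 6.49%. The levels of 2 other quantities were low in 129, though its range overlapped that of SWR in both and that of B6 in the second. Macrophage markers (5 of 5 with reads) summed to 35.3 to 49.7 CPM in 129, while B6 had 83.2 to 115, SJL 68.9 to 92.6 and SWR 45.0 to 69.8 CPM. Reads on 189 genes of other tissues, a measure of background, were at a median of 0.512 rpm in 129 and 2.96 to 5.33 rpm in the other strains. The part of depletion, of macrophages and of background in the rRNA counts was not tested. With background as an added term mt-Rnr1 kept its 3 calls. Background differed with strain, so that fit cannot tell the 2 apart.

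**Figure D3:**
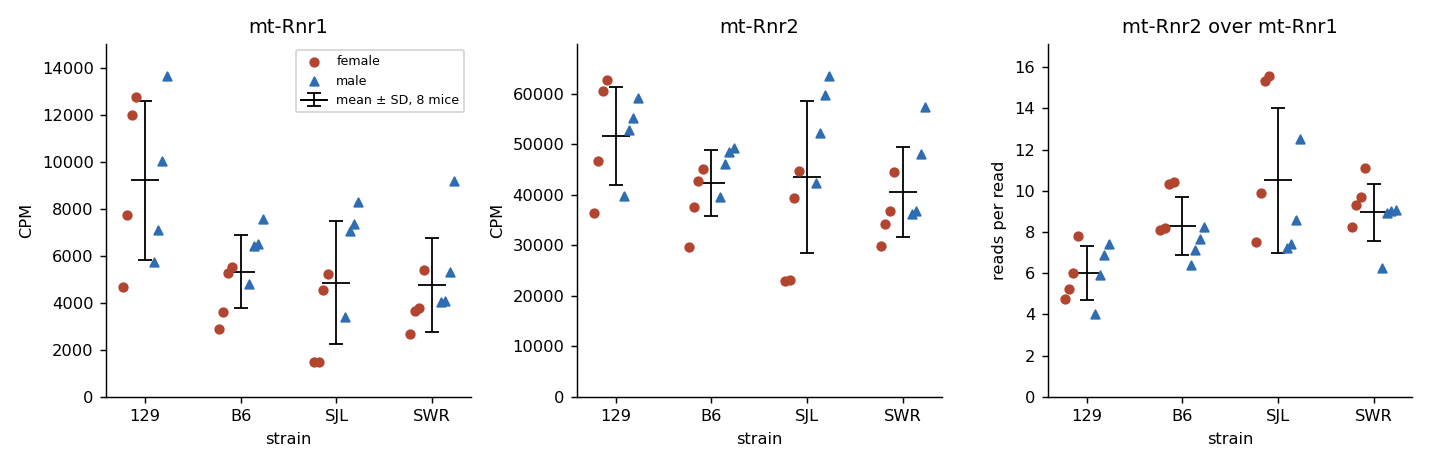
Level of mt-Rnr1 and mt-Rnr2 (CPM) and the number of mt-Rnr2 reads per mt-Rnr1 read, by strain, with 1 point per mouse (circles female, triangles male) and bars of mean ± SD of 8 mice. Mean mt-Rnr1 is 9215 CPM in 129 and 4773 to 5319 CPM in the other strains, with overlapping points.

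The mRNAs together took 0.797 to 1.24% of a library, with a median of 1.11% in B6, 1.06% in SJL, 0.979% in SWR and 0.871% in 129. mt-Co1 (chrM:5328-6872), the catalytic subunit of cytochrome c oxidase (complex IV), held 60.8 to 69.6% of the mRNA reads (mean 65.4 ± 2.05%, n = 32). This share and those that follow are of uniquely placed reads, among which the 6 mRNA genes inside the copied stretch are nearly absent. mt-Nd1 (chrM:2751-3707), a complex I subunit, held 11.4 to 15.7% and mt-Cytb (chrM:14145-15288), the cytochrome b of complex III, 10.7 to 14.8%. The complex I subunits mt-Nd2 (chrM:3914-4951), mt-Nd4 (chrM:10167-11544) and mt-Nd5 (chrM:11742-13565) held 1.54 to 3.83% each, and mt-Nd6 (chrM:13552-14070, minus strand) 0.0993 to 0.234%. Within groups the median coefficient of variation was 8.69% for mt-Co1, 9.79% for mt-Nd1, 10.8% for mt-Cytb, 13.5% for mt-Nd4, 15.0% for mt-Nd2 and 21.8% for mt-Nd6. In mt-Nd5 it ranged from 10.7 to 33.2% over the groups, with a median between those of mt-Rnr2 (17.4%) and mt-Nd6, so mt-Nd5 and mt-Nd6 varied more among mice than mt-Rnr2.

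mt-Co1 had its lowest median in 129. Its lowest, median and highest levels were 5231, 5588 and 6711 CPM in 129, 6528, 7325 and 8552 in B6, 5634, 7077 and 8192 in SJL, and 5956, 6424 and 7790 CPM in SWR. The LFC was 0.27 ± 0.08 for B6 minus 129 (SE, edgeR, FDR 0.0033) and 0.23 ± 0.08 for SJL minus 129 (FDR 0.0155), both held with each library left out. With background as an added term they were 0.22 (FDR 0.141) and 0.19 (FDR 0.167). In these pairs mt-Co1 and mt-Rnr1 were called in opposite directions.

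The other called mRNAs overlapped between the strains compared. mt-Nd1 stood at 1061, 1279 and 1574 CPM in 129, 1194, 1377 and 1486 in B6, 1326, 1568 and 1923 in SJL, and 1261, 1369 and 1708 CPM in SWR. It was higher in SJL than in 129 (LFC 0.22 ± 0.08, FDR 0.0319) and B6 (0.22 ± 0.08, FDR 0.0246), calls that were lost when any 1 of 5 libraries (129 female 3, 129 male 2 and 3, SJL female 3 and SJL male 1, LFC 0.17 to 0.26 over every library left out) and of 3 libraries (B6 male 1 and 3 and SJL male 1, 0.18 to 0.25) was left out. The former also ended with background as an added term (LFC 0.08, FDR 0.590).

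mt-Cytb stood at 1048, 1233 and 1459 CPM in 129, 1278, 1529 and 1656 in B6, 1068, 1235 and 1503 in SJL, and 1188, 1308 and 1567 CPM in SWR. It was lower in SJL than in B6 (−0.28 ± 0.08, FDR 0.0065), with each library left out as well. mt-Nd6 had 11.7, 15.7 and 26.8 CPM in SJL and 9.36, 13.1 and 18.1 in SWR, and the LFC of SWR minus SJL was −0.43 ± 0.17 (edgeR, FDR 0.0449), a call lost when any 1 of 11 libraries was left out (129 female 3, 129 male 4, B6 male 2, SJL male 1, 2 and 4, SWR female 1 and 4, and SWR male 1, 2 and 4, LFC −0.51 to −0.33).

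mt-Nd2, mt-Nd4 and mt-Nd5 were not called in any strain pair in the main fit to whole libraries. Their medians by strain ran from 255 CPM in B6 to 293 in 129 for mt-Nd2. For mt-Nd4 they ran from 253 in SJL to 308 in B6, and for mt-Nd5 from 189 in 129 to 224 in SJL. For each of these genes the 4 strain ranges overlapped. Some other settings did call them. With library totals alone, mt-Nd4 was called for B6 minus 129 (LFC 0.26, edgeR, FDR 0.0212) and SJL minus B6 (−0.24, FDR 0.0382). The same setting called mt-Nd5 for SJL minus 129 (0.36, FDR 0.0204). With background as an added term, mt-Nd2 was called for B6 minus 129 (−0.51, FDR 0.0110) and SWR minus 129 (−0.35, FDR 0.0286).

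**Figure D4:**
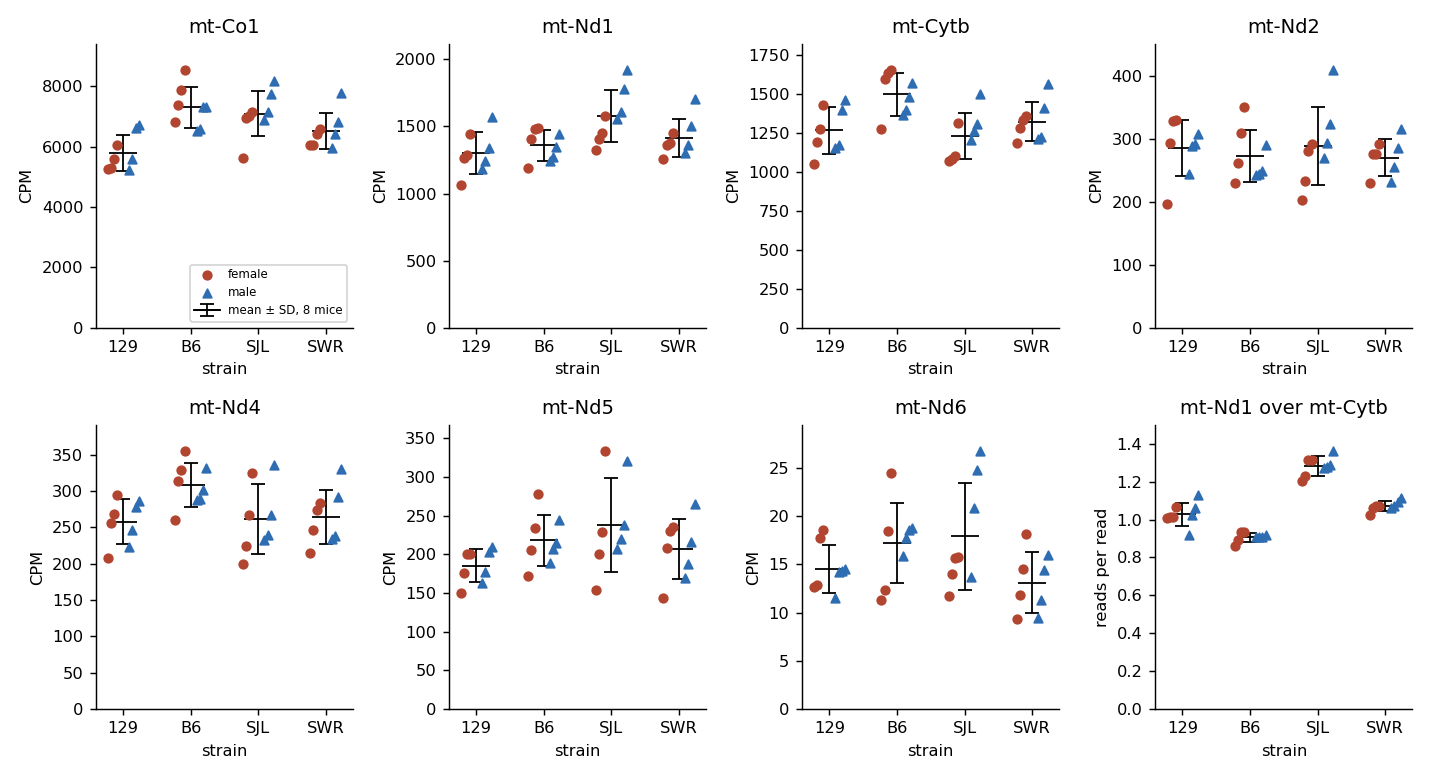
Level of 7 mitochondrial mRNAs in CPM and, at the lower right, mt-Nd1 reads per mt-Cytb read, by strain, with 1 point per mouse (circles female, triangles male) and bars of mean ± SD of 8 mice. Single mRNAs overlap among strains, while the ratio is 1.20 to 1.36 in SJL mice and at most 1.13 in the others.

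Over the strain pairs, 15 of the 37 genes passed the filter on low counts, which are both rRNAs, 9 mRNAs (mt-Nd1, mt-Nd2, mt-Nd4, mt-Nd5, mt-Nd6, mt-Co1, mt-Co2, mt-Co3 and mt-Cytb) and 4 tRNAs (mt-Tw, mt-Tp, mt-Tq and mt-Tt). At an FDR under 0.05, 3 of 15 were called for B6 minus 129 against 52.8% of all 18382 genes tested, 3 for SJL minus 129 (38.3%) and 2 for SWR minus 129 (41.8%). For SJL minus B6 2 were called (45.7%), for SWR minus SJL 1 (32.5%) and for SWR minus B6 0 (40.9%). In SWR minus B6 the count at an unadjusted p under 0.05 was also 0, beside 8903 of all genes, and DESeq2 called 0. In at least 1 pair 6 of 15 were called, against 80.1% of all genes, so the share called was below that of all genes. Of the 4 tRNAs tested, 0 were called. The median LFC of the 15 was 0.17 for B6 minus 129 and 0.22 for SJL minus 129, beside 0.02 and −0.01 over all genes, and between −0.12 and 0.03 in the other 4 pairs. The pairs share mice, so their values are not independent.

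The makeup of the mRNA pool differed among strains. The ratio that follows was chosen after its values were seen and is given without a test. mt-Nd1 had 0.860 to 0.934 reads per mt-Cytb read in B6 (median 0.909), 0.916 to 1.13 in 129 (1.02), 1.02 to 1.11 in SWR (1.07) and 1.20 to 1.36 in SJL (1.28). Every SJL mouse lay above every other mouse, and B6 lay below SWR and SJL and overlapped 129. Counted in uniquely placed reads, mt-Nd1 held 11.4 to 12.9% of the mRNA pool in B6 mice and 13.1 to 15.7% in all others. mt-Cytb held 10.7 to 12.2% in SJL mice and 12.6 to 14.8% in all others.

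The fit was also made with libraries scaled to the pool of mitochondrial mRNA reads instead of to the whole library. On that scale the median of all genes moved by −0.20 to 0.09. By edgeR's test 4 of 15 mitochondrial genes were called for B6 minus 129 (53.4% of all genes), 4 for SJL minus 129 (42.8%), 2 for SWR minus 129 (34.4%), 2 for SJL minus B6 (31.9%), 1 for SWR minus B6 (32.3%) and 1 for SWR minus SJL (21.8%). Both rRNAs were called lower than in 129 in all 3 pairs with 129, which adds mt-Rnr2 for SJL minus 129 (LFC −0.52, FDR 0.0021). mt-Nd2 was lower in B6 than in 129 (LFC −0.34, FDR 0.0031) and mt-Nd4 in SJL than in 129 (−0.21, FDR 0.0489). The calls of mt-Nd1 for SJL minus 129 (LFC 0.04, FDR 0.522) and of mt-Nd6 for SWR minus SJL (−0.35, FDR 0.0917) were lost.

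The remaining calls on that scale were those of mt-Nd1 and mt-Cytb, which restate the ratio above in the same mice and are given as values only. The LFC of mt-Nd1 was −0.20 for B6 minus 129, 0.25 for SJL minus B6 and 0.19 for SWR minus B6. That of mt-Cytb was −0.28 for SJL minus 129, −0.25 for SJL minus B6 and 0.20 for SWR minus SJL. mt-Co1 makes up most of the pool used as the scale, so its own LFC is drawn towards 0 by construction and is not read here. mt-Nd1 and mt-Cytb have no window that matches an annotated nuclear transcript. How far strain differences in mitochondrial sequence moved these placements was not tested.

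Males and females did not differ in any mitochondrial gene by the threshold. Across strains 0 of 15 were called with edgeR, against 0.283% of all genes, and 0 with DESeq2. At an unadjusted p under 0.05 in edgeR there were 3 of 15, beside 1648 of all 18382 genes. The 2 rRNAs were nearest. mt-Rnr2 stood at 22988, 38446 and 62636 CPM in the lowest, median and highest of 16 females and at 36114, 48794 and 63459 in 16 males (LFC 0.33 ± 0.11, edgeR, FDR 0.30). mt-Rnr1 stood at 1477, 4599 and 12749 CPM in females and 3387, 6774 and 13661 in males (LFC 0.54 ± 0.20, FDR 0.37). The groups overlapped for both.

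Within strains 0 of 15 were called in 129, B6, SJL and SWR, where 0.0816, 0.103, 0.125 and 0.348% of all genes were. DESeq2 also called 0. The counts at an unadjusted p under 0.05 in edgeR were 1, 0, 7 and 2 of 15. Beside these stood 1447, 1680, 1221 and 1516 of all 18382 genes. In SJL the 4 females had 22988 to 44766 CPM of mt-Rnr2 and the 4 males 42316 to 63459, with a slight overlap (LFC 0.80 ± 0.21, FDR 0.17). Without SJL female 3 this difference was called (LFC 1.01, FDR 0.0337), and with no filter on low counts mt-Rnr2, mt-Rnr1 and mt-Nd6 were called in SJL (3 genes, with 0.133% of all genes called). In SWR mt-Co3 had an LFC of 1.49 (FDR 0.13), which became 2.10 (FDR 0.0163) without SWR female 1. The interaction of sex and strain was called for 0 of 15 genes by either tool (0.0163% of all genes in edgeR). At an unadjusted p under 0.05 in edgeR there were 3 of 15, beside 1644 of all 18382 genes. A difference between SJL and the other strains in the effect of sex was thus not shown.

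The rRNAs rose and fell together across mice. Over 32 mice, after centring by strain, log2 CPM of mt-Rnr1 and mt-Rnr2 had Pearson's r = 0.957 and Spearman's rho = 0.918, each with permutation p = 1e-05, the smallest that the shuffles could give (3e-05 adjusted over 3 pairs of genes). Without the 2 libraries farthest from the median r was 0.932, and within strains it was 0.907 to 0.977. mt-Nd6 and mt-Nd5, neighbours on opposite strands whose annotated ends overlap, had r = 0.631 and rho = 0.661 (permutation p = 0.00053 and 0.00023, adjusted 0.000795 and 0.000345). Without the 2 farthest libraries r was 0.586, and within strains it was 0.587 to 0.716. mt-Rnr2 and mt-Co1 had r = 0.299 and rho = 0.353 (permutation p = 0.136 and 0.0519, the same after adjustment), which did not pass the threshold, with r = 0.356 without the 2 farthest libraries. All values of a library share its depth and its depletion. Across mice mt-Nd5 had 8.88 to 21.3 reads per read of mt-Nd6 (median 14.0).

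The nuclear partners of these transcripts were taken from lists of respiratory subunits and of proteins that maintain, transcribe, process and translate the mitochondrial genome. Of 80 nuclear respiratory subunits tested, B6 minus 129 had 22 higher and 10 lower at an FDR under 0.05 (52.8% of all genes were called), SJL minus 129 6 and 14 (38.3%), and SWR minus 129 16 and 4 (41.8%). SJL minus B6 had 2 higher and 27 lower (45.7%), SWR minus B6 7 and 4 (40.9%), and SWR minus SJL 30 and 2 (32.5%). The share of subunits called was below that of all genes in every pair except SWR minus SJL. Their median LFC was −0.11 for SJL minus B6 and 0.14 for SWR minus SJL, beside −0.02 and −0.01 over all genes. By complex, SWR minus SJL had 11 higher and 2 lower of 36 in complex I, 1 and 0 of 4 in complex II, 3 and 0 of 9 in complex III, 8 and 0 of 14 in complex IV, and 7 and 0 of 17 in complex V. Of the 32 subunits called in this pair 30 were lower in SJL.

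The other lists were called in both directions, and the shares of all genes called in each pair are those just given. Of 74 mitoribosomal proteins tested, B6 minus 129 had 16 higher and 8 lower, SJL minus 129 5 and 11, SWR minus 129 11 and 13, SJL minus B6 7 and 21, SWR minus B6 5 and 13, and SWR minus SJL 8 and 5. The share called was below that of all genes in all 6 pairs. Of 23 genes for maintenance and transcription of the mitochondrial genome, the pairs in the same order had 2 higher and 7 lower, 2 and 3, 3 and 6, 5 and 3, 4 and 2, and 2 and 4. Of 23 genes for RNA processing and decay they had 5 and 10, 1 and 4, 4 and 4, 7 and 6, 3 and 3, and 3 and 3. Both lists were below the share of all genes in every pair except B6 minus 129 and SJL minus B6 for RNA processing and decay. In the sex comparison across strains and in the interaction, 0 genes of any of these lists were called, beside 0.283% and 0.0163% of all genes. With so few of all genes called, this is not read as a result about the lists.

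With FC > 2, 2 genes of all these lists (80, 74, 23 and 23 genes tested) were called in a strain pair, Lrpprc and Ndufs5. By that rule 19.8% of all tested genes were called, so the share of the lists called was below that of all genes. The calls of both genes held with each library left out. Lrpprc, on chr17:84705247-84790789 (minus strand), encodes a protein that binds and stabilises mitochondrial mRNAs. It stood at 56.3, 64.4 and 69.0 CPM in 129, 55.6, 57.8 and 61.1 in B6, 107, 116 and 132 in SJL, and 130, 144 and 148 CPM in SWR. Every SJL and SWR mouse lay above every 129 and B6 mouse. The LFC was 1.32 ± 0.04 for SWR minus B6 (edgeR, FDR 7.83e-25), 1.12 for SWR minus 129 (FDR 6.76e-23), 1.04 for SJL minus B6 (FDR 7.94e-22) and 0.84 for SJL minus 129 (FDR 3.53e-19). The summed share of mitochondrial mRNA reads had its highest medians in B6 and SJL, with overlapping strain ranges. A link between Lrpprc and that share was not tested.

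Ndufs5, an accessory subunit of complex I on chr4:123712710-123718202 (minus strand), had 4.81, 5.42 and 6.37 CPM in 129, 13.2, 16.2 and 18.8 in B6, 13.4, 15.1 and 18.0 in SJL, and 4.08, 5.28 and 7.09 CPM in SWR. The LFC was −1.54 for SWR minus B6 (edgeR, FDR 1.36e-15) and −1.49 for SWR minus SJL (FDR 5.87e-15). Its level is uncertain, because a transcript on another chromosome is nearly identical. BC002163 (chr16:42955631-42955949, plus strand) matches Ndufs5 over 319 bp at 99.4% and was looked up after the values of Ndufs5 were seen. It stood at 8.23, 8.73 and 11.3 CPM in 129, 0.280, 0.524 and 1.25 in B6, 0.126, 0.430 and 0.669 in SJL, and 7.25, 9.05 and 10.5 CPM in SWR, and was thus high in the pair of strains where Ndufs5 was low. The LFC of BC002163 was 3.79 for SWR minus B6 (FDR 4.38e-17) and 4.49 for SWR minus SJL (FDR 2.60e-18). The sum of both was 14.2 to 19.2 CPM in B6, 14.0 to 18.1 in SJL, 13.1 to 16.5 in 129 and 11.3 to 16.6 in SWR, and these ranges overlapped.

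**Figure D5:**
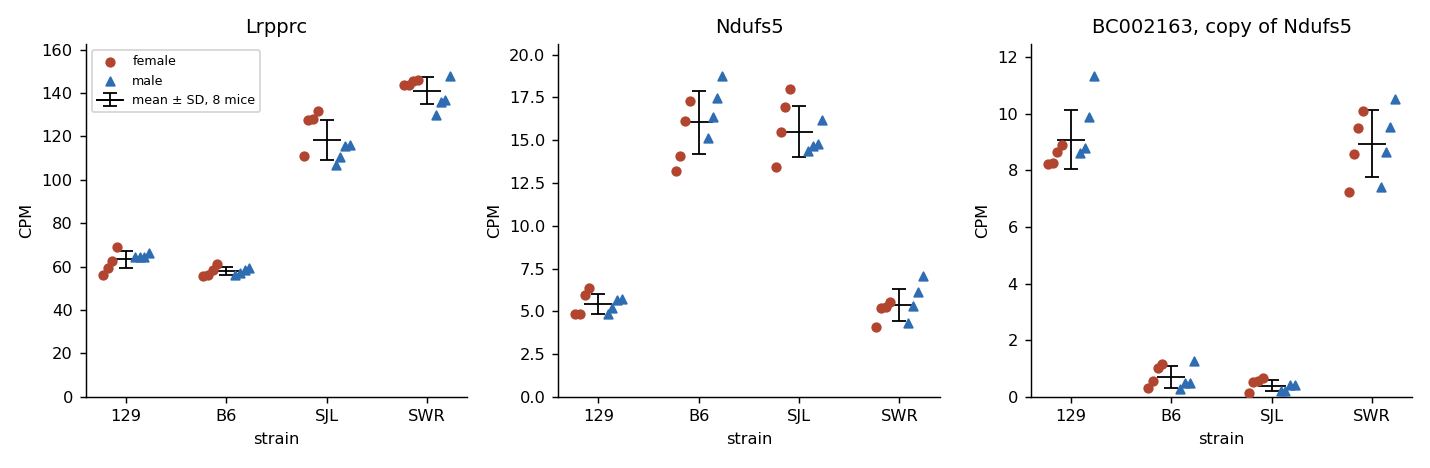
Level (CPM) of Lrpprc, Ndufs5 and BC002163, a near-identical copy of Ndufs5, by strain, with 1 point per mouse (circles female, triangles male) and bars of mean ± SD of 8 mice. Lrpprc is 107 to 148 CPM in SJL and SWR and 55.6 to 69.0 CPM in B6 and 129, and Ndufs5 is higher in B6 and SJL than in 129 and SWR, where BC002163 is the higher.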

How the data were processed

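Stranded total RNA libraries, ribodepleted, were read as 125 bp pairs, trimmed with Trim Galore and placed with STAR on GRCm38 (mm10) with Ensembl 87 genes. The authors deposited the count of uniquely placed read pairs per gene on the reverse strand. The deposited normalized signal, in which each library's counts are scaled by its DESeq2 size factor, was used only as an alternative. Groups came from the labels, and a number from 1 to 4 in the library descriptions served as replicate numbers. It was taken as the sequencing lane, but the labels do not say what it is. The mice were individual animals. The members and lists were chosen with earlier results of these data known.

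Counts were tested with edgeR 4.0.16 in R 4.3.3 (TMM, filterByExpr, quasi-likelihood F test). p-values were adjusted by Benjamini and Hochberg over the 18382 genes tested (FDR). LFC is a log2 fold change, FC a fold change, and SE was taken from the LFC and the F statistic. Strain pairs had sex as covariate and sexes had strain, and sexes within strains used 8 group means. Correlations used 100000 two-sided shuffles within strains. Nuclear copies were annotated transcripts matched by blastn 2.17.0 over at least 200 bp at 90% or more. For named genes, all 37 members were counted, the rRNA and mRNA genes and the 5 tRNA genes with most reads were given values, and up to 3 genes per nuclear list called with FC > 2 were named. The tests were checked on simulated data. Alternatives were DESeq2 1.42.0, its size factors, library totals, scaling without or to mitochondrial genes, no filter, the replicate block, added terms for background or mt-Rnr2, and libraries left out.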

Additional observations from a re-analysis of the deposited data

Results flagged for a closer look

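A library stood far from the others of its strain. In SWR, male 3 had 9201 CPM of mt-Rnr1, while the next highest of the 8 mice had 5402 CPM and the lowest 2690 CPM, so the gap to its neighbour was 0.584 of the whole range and above Dixon's critical value of 0.526. This was 1 of 48 sets examined, 12 measures in each of 4 strains, and chance gives about 1 in 20.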

How the results depend on the processing

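No named difference changed direction under any alternative. DESeq2 gave the same counts of mitochondrial genes called as edgeR in all strain pairs and sex comparisons. With no filter on low counts, 5 mitochondrial genes were called for SJL minus 129 (3 otherwise), 3 for SJL male minus female (0), 12873 of all genes with FC > 2 in a strain pair (3632) and 428 of all genes for the interaction (3). With background as an added term, 4 were called for SWR minus 129 (2) and 0 for SWR minus SJL (1). For SWR minus B6 (0), library totals gave 2 and the mRNA pool as scale gave 1. With mt-Rnr2 as an added term, the mRNA and tRNA genes called were 7 for B6 minus 129 (1), 4 for SJL minus 129 (2), 5 for SWR minus 129 (0), 1 for SWR minus B6 (0) and 2 for SWR minus SJL (1). Outside the mRNA pool scale, the share of all genes called per strain pair in these fits is not given. The changed counts are thus not read as particular to mitochondrial genes. Of all genes, DESeq2 called 95 between the sexes (52) and 73 for the interaction, and without both 129 male 1 and B6 female 1 these were 80 and 12. The r of mt-Rnr2 and mt-Co1 on deposited normalized counts was 0.438 (permutation p = 0.0171). The causes were not tested.

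With each library left out in turn, the mitochondrial genes called were 2 to 4 for B6 minus 129, 2 to 4 for SJL minus 129, 1 to 3 for SWR minus 129, 1 to 3 for SJL minus B6, 0 to 0 for SWR minus B6, 0 to 1 for SWR minus SJL, 0 to 2 with FC > 2, and 0 to 1 within SJL and within SWR between the sexes. All genes called were 36 to 80 for sex, 2 to 8 for the interaction and 3677 to 4069 with FC > 2. The share of all genes called in each strain pair is not given for these fits. With the replicate number as a block, 2 mitochondrial genes were called for B6 minus 129 (mt-Rnr2 lost, FDR 0.0571), and 3591 of all genes with FC > 2. The other counts of mitochondrial genes were as without the block. Deviations of libraries with the same number in other groups had a median correlation of −0.013 (22 of 112 pairs over 0.1), against 0.011 (74 of 336) for other numbers. At the median, libraries of the same number were thus no more alike. These medians cannot show whether such libraries shared a batch. Low counts limit the tRNA genes and the genes of the copied stretch.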
